A study of Homo sapiens with 66 samples.

Results

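The sites described here are the adenosines that THP-1 cells, a human monocytic leukemia line, edited to inosine in most of their reads without any treatment. They were chosen by their measured editing in control cells: at least 90 reads summed over the 9 control libraries of days 3 to 5, and edited reads making up 50 to 95% of those reads. Of the 475962 sites listed in the first of the series' data sets (study 1), 292830 had the minimum of reads, and 1931 of these (0.659%) met the rule. The control editing of these 1931 highly edited sites is therefore a description and carries no test. Its median was 58.9% (interquartile range 53.8 to 66.4%), with 1042 sites between 50 and 60% and 10 sites above 90%. The sites just inside the lower limit were an intronic site of ZNF684 (50%, 100 reads) and one of STX2 (50%, 110 reads), and the nearest site outside it lay in the 3' UTR of NUP43 (49.9%, 1518 reads). The sites closest to the upper limit were an intergenic site on chromosome 14 (94.7%, 133 reads) and an intronic site of LINC00910 (94.5%, 272 reads).

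Study 1 used a STING-deficient clone of THP-1 cells that carries a Cas9 transgene, so every group below lacks STING, the adaptor that signals the presence of cytosolic DNA. Cells were nucleofected with pairs of guide RNAs: NC1 with NC1 (CTRL), GFP with NC1 (GFP), hnRNPC with NC1 (hnRNPC), NC1 with ADAR (ADAR), or ADAR with hnRNPC (ADAR+hnRNPC), and total RNA was sequenced 3, 4 or 5 days later in 3 libraries per group and day. A further group held CTRL cells given IFN-alpha, collected on day 4 in 3 libraries, which makes 48 libraries in 16 groups. Study 2 used a Cas9-transgenic clone with intact STING and other guides against ADAR and hnRNPC, on day 4 only, with 2 libraries for each of 9 groups. Its RNA came from whole cells (total), from the digitonin-soluble, cytosol-enriched fraction (cytosolic) or, for hnRNPC cells here, from the digitonin-insoluble, nucleus-enriched fraction (nuclear). Each line is 1 clone, and the cells of a group are a nucleofected pool in which targeted and untargeted cells are mixed. The GFP libraries were not read by the rule, so comparisons with them, and all comparisons within study 2, rest on reads that did not choose the sites.

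ADAR, also called ADAR1, is the enzyme that deaminates adenosines to inosines inside double-stranded RNA, and sequencers read inosine as guanosine. Most human targets are Alu elements, abundant repeats that fold into duplexes where 2 copies lie in opposite orientation in the same transcript. Editing of such duplexes is known to keep the cell's own RNA from being sensed by MDA5, a receptor for double-stranded RNA. HNRNPC is a nuclear protein that binds uridine tracts and keeps Alu sequence in introns from being spliced in as exons.

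The 5 sites described below, among the most-read ones of study 1 with at most 1 per gene, lie in the 3' UTRs of SPN (chr16:29678844), TMPO (chr12:98942688), RPL7L1 (chr6:42856917) and SSR3 (chr3:156259406) and in intergenic sequence of chromosome 1 (chr1:40332543). The sequence of the intergenic site is shown as an example of one that fell in ADAR cells. It is 29 bases of the transcribed strand from the GRCh37 reference, 5′ to 3′, with the edited adenosine in capitals, as in the sequences after it.
Intergenic (chr1:40332543): tggcacgtgcctatAgttctagctgctca
The 201 bases around each of these 5 sites had a partner in opposite orientation within 3000 bases, with 108 to 165 aligned bases and 77.9 to 88.9% identity, from 1154 bases away at SSR3 to 2960 bases away at TMPO.

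A further set is shown because these sites, also edited in most reads according to the tables, hardly differed between GFP and ADAR cells. Among sites with at least 20 reads in every ADAR and GFP library of study 1, they had the smallest difference of pooled editing. The 4 sites, at most 1 per gene, all lie in exons of pseudogenes, which are copies of other genes.
ACTBP9 (chr18:60109856): tcaccaccacggccAagcgggaaatcgtg
ENSG00000231747 (chr2:113379528): tacttgtggtgaagAttctaagacctggg
EEF1A1P11 (chr1:96912617): gaaaaattgcagaaAgaggctgctgagat
RPL7AP62 (chr15:48022776): tgggccgagaagaaAgctgctggcaaagg
The 201 bases around each of these 4 sites held no inverted partner of at least 100 aligned bases at 70% identity within 3000 bases.

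The site tables of study 1 held 4264225 to 12674442 reads per library over all sites and 35817 to 83482 over the highly edited sites, whose median depth was 10 to 26 reads per library. In study 2 they held 5634492 to 9031378 and 52428 to 69757 reads. A fraction of 0.201 to 0.673% of values per library was empty in the tables of study 1, more often at deeply read sites, and these values were left out. The cells had the transcripts of the myeloid line they are labelled as. In study 1 CD33 stood at 49.3 to 72.1, SPI1 at 44.8 to 70.7 and LYZ at 74.9 to 576 CPM (a gene's read count scaled to a common total of gene reads), whereas CD3E, EPCAM and HBB were at or below 0.109 and CD14, a marker of mature monocytes, was at 0.0966 to 4.24. ADAR mRNA in ADAR cells of study 1 was 362 ± 9.5, 359 ± 2.4 and 388 ± 10 CPM on days 3, 4 and 5 (SD, n = 3), against 402 ± 7.0, 402 ± 38 and 385 ± 16 in GFP cells, so that the libraries did not overlap on days 3 and 4 and overlapped on day 5. A cut in a gene need not lower its read count by much, so this is a weak check of the targeting. In study 2 it was 502 ± 95 in ADAR cells and 871 ± 96 in CTRL cells (total RNA, SD, n = 2). It was 1159 ± 113 with IFN-alpha and 1414 ± 192 in ADAR+hnRNPC cells on day 5, and HNRNPC was 324 ± 11 in hnRNPC cells on day 5 against 780 ± 52 in GFP cells. ADARB1, which encodes the second active editing enzyme, stood at 3.36 to 10.2 CPM in study 1.

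Highly edited sites lay in introns (817 sites), 3' UTRs (535), intergenic sequence (315), exons of pseudogenes (190), other noncoding exons (57), 5' UTRs (9) and coding sequence (8), by the GENCODE annotation of the same strand. They were spread over 820 genes, of which 454 held a single site. The 3' UTR share was 27.7%, close to the 26.6% of sites edited at 20 to under 50% in control cells and above the 23.4% of sites at 5 to under 20%. Introns were less represented, at 42.3% against 53.2 and 56.7%. Pseudogene exons stood out by size, holding 9.84% of the highly edited sites but 0.713 and 0.304% of the sites in the lower ranges. These shares are descriptions, since neighboring sites share reads and the ranges were cut from the control values.

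An inverted partner, the arrangement that can fold into a duplex, was found for 78.4% of the highly edited sites with reference sequence, against 91.5 and 92.0% in the lower ranges. The match had a median identity of 83.7% and lay at a median distance of 1046 bases. By kind of sequence, a partner was found for 94.6% of the 3' UTR sites, 90.5% of the intronic sites, 68.2% of the 280 intergenic sites with reference sequence and 3.68% of the pseudogene-exon sites. The authors' editing-cluster-rich regions (ECRs), stretches where called sites are dense, held 80.8% of the highly edited sites, against 87.3% of those at 20 to under 50%. One ECR on chromosome 12 held 87 highly edited sites, 52 of them intergenic, and none had a partner. This lowers the intergenic share and the total share with a partner.

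The base next to the edited adenosine, which ADAR is known to read, shifted with the level of editing. A T (U in RNA) stood before 50.7% of the highly edited adenosines, 40.5% of those at 20 to under 50%, 30.7% of those at 5 to under 20% and 19.6% of those under 5%. A G stood before 3.54%, 3.72%, 5.65% and 16.9%. The triplet TAG, with the edited base in the middle, was at 27.7, 19.8, 12.8 and 6.48% in the same order. Highly edited sites also lay near each other: 34.4% had another within 50 bases, against 17.9, 10.2 and 4.26% of the sites in the lower ranges. The gene with the most was RPAP3-DT (35 sites in an intron), followed by CYP20A1 (12 in the 3' UTR) and STAM (10 in an intron), which encodes an adaptor of receptor sorting.

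Over the 201 highly edited sites with at least 10 reads in all 48 libraries of study 1, the median editing of a library was 58.1 to 62.5% in the 9 GFP libraries and 37.0 to 40.9% in the 9 ADAR libraries, so that the groups did not overlap. It was 60.4% ± 1.8, 59.4% ± 0.70 and 59.6% ± 1.3 in GFP cells on days 3, 4 and 5 (SD, n = 3). In ADAR cells it was 39.4% ± 1.4, 37.2% ± 0.24 and 37.2% ± 0.28. In such pools, fewer cells that had lost editing and a smaller loss per cell cannot be told apart. ADAR+hnRNPC cells were also low, at 42.5% ± 1.7, 40.4% ± 0.43 and 46.6% ± 0.40, and the day 5 libraries lay above those of the 3 ADAR libraries. hnRNPC cells stood at 60.5% ± 0.96, 64.1% ± 2.9 and 62.9% ± 2.6, overlapping the CTRL and GFP libraries. IFN-alpha gave the highest level, with libraries at 67.5, 68.8 and 75%.

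Targeting ADAR lowered the editing of highly edited sites on each day. For each comparison, a site was called where edgeR's quasi-likelihood test of the edited share gave an adjusted p (Benjamini-Hochberg, over all sites tested) of at most 0.05 and the pooled editing differed by at least 10 percentage points. Against GFP cells, 271 of the 832 highly edited sites with enough reads on day 3 were called (32.6%), against a background of 2.31% of all tested sites. On day 4 it was 278 of 948 (29.3%, background 1.94%), and on day 5 it was 291 of 917 (31.7%, background 1.81%). All of these calls were toward less editing. Most sites in the background were edited in under 5% of reads, where a fall of 10 points was not possible, and among sites at 20 to under 50% the called share was 31.3, 28.2 and 26.6%. The median difference at highly edited sites was -18.0 points on day 3 (interquartile range -26.3 to -8.12), -17.7 on day 4 (-26.9 to -7.91) and -19.1 on day 5 (-28.9 to -8.89). Counted without a test, 477, 526 and 544 sites had all ADAR libraries below all GFP libraries on the 3 days, and 6, 11 and 8 had them all above. The same count was not made over the other tested sites, so these numbers have no background share beside them. The counts moved with single libraries: leaving out GFP replicate 1 or 2 on day 3 gave 151 or 173 calls, GFP replicate 2 or 3 on day 4 gave 158 or 176, and on day 5 GFP replicates 1, 2 and 3 and ADAR replicate 3 gave 141, 174, 177 and 188. On day 5 limma on the log2 odds called 189 sites.

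Over the 3 days, 443 of the 1230 highly edited sites tested at least once were called at least once, 135 of the 533 tested on every day were called on every day, and 701 never had enough reads. The effect on day 5 did not differ detectably from that on day 3: the edgeR interaction test called 0 of 638 highly edited sites (background 0.0%, 11 at an unadjusted p of at most 0.05), and limma also called 0. The median difference between the 2 effects was -0.58 points.

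**Figure D1:**
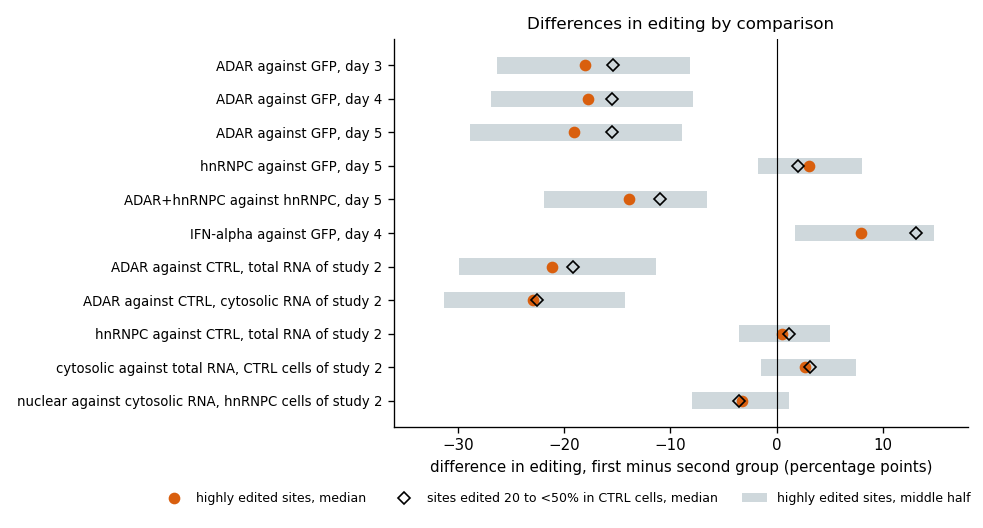
Median difference in editing (percentage points, first minus second group) over the highly edited sites tested in each comparison, with the interquartile range, beside sites edited at 20 to under 50% in control cells. Comparisons of ADAR with GFP or CTRL cells lie between -17.7 and -23.0 points, that of ADAR+hnRNPC with hnRNPC cells at -13.9, IFN-alpha at 7.96, and the hnRNPC and compartment comparisons between -3.24 and 3.04.

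The size of the fall varied with the location of the site. With the reads of days 3 to 5 pooled, the 533 sites tested on every day went from a median of 58.4% in GFP cells to 38.6% in ADAR cells, and the median site kept 65.4% of its editing. Sites edited at 20 to under 50% kept less of theirs: a median of 42.6% over 2665 sites. Among highly edited sites, the median difference was -24.3 points for 63 intergenic sites, -23.8 points for 233 sites in 3' UTRs, -19.1 points for 170 intronic sites and -0.99 points for 53 pseudogene-exon sites. Sites with an inverted partner differed by a median of -22.7 points (417 sites, 17 of them within 5 points of 0). Sites without one differed by -2.81 points (116 sites). Of the latter, the 48 inside an ECR had a median of -15.7 points, and the 15 that were neither in an ECR nor in a pseudogene exon had a median of -0.80. By the preceding base, the median difference was -22.8 points after T (241 sites), -18.4 after A (122), -17.9 after C (131) and -4.13 after G (25).

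Pseudogene-exon sites formed a group apart in the comparison of ADAR with GFP cells of study 1. Of the 53 tested on every day, 44 (83.0%) were within 5 points of 0, with extremes of -8.31 and 3.59 points, and the median editing was 56.3% in GFP cells and 54.3% in ADAR cells. On day 5 edgeR called 0 of the 108 tested (1 of 102 on day 3 and 0 of 107 on day 4), against 272 of 706 sites with an inverted partner. In other comparisons with ADAR targeting, the median fall over the pseudogene-exon sites tested there was larger, but the sets of sites differed. In ADAR+hnRNPC against hnRNPC cells on day 5 it was -5.66 points (86 sites, 1 called). In study 2, which listed 12 of the 190 sites, it was -7.73 points in total RNA (11 sites) and -24.0 in cytosolic RNA (7 sites). Of these, 0 were called in either, and the medians do not describe the sites of study 1 as a whole. Between hnRNPC and GFP cells on day 5 their median difference was 5.62 points (108 sites, 0 called). At ACTBP9, a copy of a beta-actin gene, GFP libraries gave 53.8, 50 and 50% on day 5 and ADAR libraries 53.1, 50 and 50%. At EEF1A1P11, a copy of the gene for a translation elongation factor, they gave 44, 50 and 46.9% and then 47.1, 50 and 51.2%. At RPL7AP62, a copy of a ribosomal protein gene, they gave 52.8, 51.5 and 55.3% and then 53.0, 55.6 and 50.7%. In all 3 cases the groups overlapped. These sites were chosen for their small difference between the same libraries, so the overlap is no separate evidence. The 190 pseudogene-exon sites came from 119 annotated pseudogenes, with RPS3P3 (8 sites), ENSG00000236814 (6), HSPA8P1, HNRNPKP4 and EEF1A1P11 (5 each) leading, and just 12 of the 190 (6.32%) were also listed in study 2, against 94.0% of the 3' UTR sites. Reads at such positions can come from the parent gene or another near-identical copy, so their values are uncertain; which copy they came from was not tested.

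The sites of SPN, TMPO, RPL7L1 and SSR3 had 338 to 1395 reads in each library of study 1 that had a value. SPN encodes CD43, a sialylated surface protein of white blood cells. Its most-read site had 56.0 to 64.4% editing in the 8 GFP libraries with a value and 24.0 to 29.2% in the 7 ADAR libraries with one, without overlap. Empty values kept it out of the ADAR test of study 1. TMPO encodes a protein of the inner nuclear membrane and the nuclear lamina. Its site had 73.4, 72.5 and 71.3% editing in GFP libraries and 52.4, 50.5 and 51.9% in ADAR libraries on day 4 (adjusted p = 4.48e-43, edgeR).

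RPL7L1 encodes a relative of ribosomal protein L7. Its site fell from 58.4, 56.0 and 57.8% in GFP libraries to 41.8, 42.6 and 38.9% in ADAR libraries on day 5, by 16.5 points (adjusted p = 4.42e-30, edgeR). SSR3 encodes a subunit of the complex that assists protein entry into the endoplasmic reticulum. Its site had 59.4, 57.5 and 55.5% in GFP libraries and 46.6, 45.1 and 50.5% in ADAR libraries, a difference of -10.3 points (adjusted p = 4.34e-06, edgeR). The intergenic site on chromosome 1 had 63.6, 59.3 and 63.4% and then 37.5, 35.3 and 38.0%, a difference of -25.4 points (adjusted p = 1.36e-22, edgeR). None of these pairs of groups overlapped, and on day 5 the falls at these 3 sites ranged from 10.3 to 25.4 points from GFP values of 55.5 to 63.6%.

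Other sites in the same transcripts also differed in size of change. With the reads of days 3 to 5 pooled, the 12 sites of CYP20A1, a cytochrome P450 gene, fell by 14.2 to 43.3 points, the 8 of SPN by 20.6 to 38.4, the 3 of TMPO by 10.2 to 27.7 and the 3 of SSR3 by 9.82 to 24.3. The 3 sites of RPL7L1 had a narrow range, from 10.6 to 15.4 points. ORC2, which encodes a subunit of the origin recognition complex, had one site that differed by -41.8 points and another that differed by -0.66. Among the 48 ECRs with at least 3 such sites, the range of differences within an ECR was 1.40 to 29.1 points, with a median of 13.6.

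Among called sites with at least 20 reads in every library, the largest falls left little editing. In LINC02976, a long noncoding RNA, the intronic site at chr6:42910218 had 60.2, 61.0 and 58.2% editing in GFP libraries and 6.78, 20.6 and 13.8% in ADAR libraries on day 5, a difference of -45.7 points (adjusted p = 1.13e-12, edgeR). SMU1 encodes a splicing factor. The site in its 3' UTR had 73.0, 68.3 and 50% and then 2.63, 19.4 and 26.1%, a difference of -51.0 points (adjusted p = 5.29e-07, edgeR). On day 4 the 3' UTR site of GNB4, a G protein beta subunit, went from 59.3, 63.5 and 67.0% to 22.2, 16.1 and 17.9%, a difference of -45.4 points (adjusted p = 5.26e-13, edgeR). The groups were apart at all 3 sites, which were chosen for groups that did not overlap and for the size of their difference.

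Only 8 highly edited sites lay in annotated coding sequence. DHDDS encodes a subunit of the enzyme that makes the precursor of dolichol, the lipid that carries sugars for protein glycosylation. Its site (chr1:26774866), with an inverted partner of 195 aligned bases, had 84.0, 72.7 and 91.3% editing in GFP libraries on day 5 and 54.8, 58.8 and 61.5% in ADAR libraries. The groups did not overlap, but the difference of -26.6 points did not pass the test (adjusted p = 0.166, edgeR). The site of EIF2S3B, a copy of the gene for a subunit of translation initiation factor 2, had 78.9, 73.3 and 72.7% and then 84.6, 89.3 and 77.4% (adjusted p = 0.963, edgeR). At PABPC3, a retrogene for a poly(A)-binding protein, the values were 56.9, 68.1 and 50.9% and then 56.8, 54.0 and 54.4%, which overlapped. Neither EIF2S3B nor PABPC3 had an inverted partner, and both have near-identical relatives whose reads could be assigned to them.

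Of 17 genes known to carry inverted Alu pairs in their transcripts, 12 held 23 highly edited sites. Of these, 20 were tested against GFP on some day and 18 were called (90%), all lower in ADAR cells. Beside this, 443 of all 1230 tested highly edited sites (36.0%) and 2.59% of all tested sites were called on some day. On day 5 the median difference was -28.0 points over the 18 of them tested, against -19.1 over all highly edited sites tested and 0.0 over all sites tested. PAICS encodes an enzyme of purine synthesis. Its most-read site had 64.1 to 70.7% editing in the 8 GFP libraries with a value and 24.7 to 35.8% in the 8 ADAR libraries with one (day 5: -36.4 points, adjusted p = 2.14e-49, edgeR). CTSS, which encodes the lysosomal protease cathepsin S, had 54.3 to 62.8% and 29.1 to 37.7%. F11R, a junctional adhesion molecule, had 59.3 to 74.3% and 30.1 to 42.5%. The 2 tested sites of AHR, which encodes the aryl hydrocarbon receptor, were not called on any day (day 5 at its most-read site: -14.9 points, adjusted p = 0.660, edgeR).

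Of 35 genes of innate RNA sensing and interferon signaling, 16 had sites with enough control reads and 3 had highly edited ones: IFNAR2 (5 sites), TYK2 (3) and MAVS (2). Of these 10 sites, 7 were tested and 5 were called on some day (71.4%, beside the 36.0% of all highly edited sites and 2.59% of all sites given above), with a median difference of -24.0 points over the 6 tested on day 5. MAVS is on both lists. MAVS is the adaptor that MDA5 signals through. Its most-read site in the 3' UTR had 65.1 to 78.3% editing in the 9 GFP libraries and 32.4 to 59.0% in the 9 ADAR libraries, without overlap, and was called on days 3 and 4 (adjusted p = 0.00491 and 2.24e-07, edgeR) but not on day 5 (adjusted p = 0.0833). IFNAR2 encodes a subunit of the type I interferon receptor. Its most-read site had 54.5 to 76.8% and 36.8 to 54.7%, which overlapped narrowly, and was called on every day (adjusted p = 0.000852, 0.0037 and 0.0205, edgeR). Of the 3 deaminase genes ADAR, ADARB1 and ADARB2, 0 held a highly edited site. Of 7 genes whose editing the study displayed, MIGA1, MYB and PNPLA3 held 6 sites, of which 3 were tested and 2 called on some day (66.7%, beside the same 36.0 and 2.59%), with a median difference of -24.3 points over the 2 tested on day 5. This list was chosen by the study on these libraries, so its count is no independent evidence of a direction. The intronic site of MYB, a transcription factor of blood progenitors, went from a pooled 56.8 to 16.4% on day 3 (adjusted p = 0.0271, edgeR).

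One ECR on chromosome 12 (chr12:48097597-48102321) held 87 highly edited sites, 35 on the plus strand in the intron of RPAP3-DT and 52 on the minus strand in intergenic sequence, and none had an inverted partner under the rule used. Their summed editing was 56.8 to 63.3% in GFP libraries and 48.4 to 55.5% in ADAR libraries, a gap without overlap but small beside that of other sites. ADAR+hnRNPC cells had lower values on day 5, at 42.4 to 45.1%, and IFN-alpha libraries, at 55.0 to 62.4%, overlapped GFP. In study 2, CTRL total RNA gave 52.6 and 52.0%, ADAR 46.2 and 46.4% and ADAR+hnRNPC 42.5 and 42.1%.

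In ADAR+hnRNPC cells the fall was again toward less editing. Against hnRNPC cells on day 5, 113 of 908 highly edited sites were called, all lower (12.4%, against 0.383% of all tested sites and 6.65% of sites at 20 to under 50%), with a median difference of -13.9 points (interquartile range -21.9 to -6.58). The calls depended on the tool and on single libraries: limma called 4, and leaving out hnRNPC replicate 1 or 2 or ADAR+hnRNPC replicate 1 or 2 gave 38, 65, 67 and 60. The largest of them with at least 20 reads in every library was in CYP20A1. The site at chr2:204166996 had 69.4, 59.4 and 57.1% editing in hnRNPC libraries and 17.3, 18.4 and 8.51% in ADAR+hnRNPC libraries (-48.4 points, adjusted p = 1.79e-07, edgeR). The intergenic site on chromosome 1 had 66.8, 65.1 and 61.9% and then 39.8, 41.5 and 40.3% (adjusted p = 8.72e-20, edgeR). ADAR mRNA was higher in ADAR+hnRNPC cells than in ADAR cells, as given above, and the part of that difference in these values was not tested.

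Targeting hnRNPC alone changed few of these sites. On day 5 edgeR called 2 of 863 (0.232%, against 0.0434% of all tested sites and 0.412% of sites at 20 to under 50%), with a median difference of 3.04 points, 57 sites at an unadjusted p of at most 0.05, and 0 calls by limma. The GFP libraries of day 5 are also those of the ADAR comparison. Both called sites are named here after their values were seen. In an intron of ENSG00000253821 (chr8:58410736), editing was 41.9, 35.7 and 35.3% in GFP libraries and 76.9, 71.2 and 79.6% in hnRNPC libraries (adjusted p = 0.0145, edgeR). At an intergenic site (chr15:32850842), it was 68.6, 66.7 and 57.7% and then 24.2, 30.1 and 41.5% (adjusted p = 0.00338, edgeR). Without hnRNPC replicate 1 or GFP replicate 1 or 2 neither was called, and without GFP replicate 3 there was 1 call. In total RNA of study 2, edgeR called 0 of 999 sites after hnRNPC targeting (background 0.000648%, 6 at an unadjusted p of at most 0.05), and the median difference was 0.48 points. There limma also called 0, but with 2 libraries per group it called 0 for ADAR in study 2 too, so its count decides nothing.

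With IFN-alpha, the called changes were higher editing at all highly edited sites but one. Against GFP cells of day 4, 68 of 708 were called, 67 higher and 1 lower (9.6%), with 4.35% of all tested sites called and 23.5% of those at 20 to under 50%. The median difference was 7.96 points (interquartile range 1.78 to 14.8), against 13.1 at sites edited at 20 to under 50%. IFN-alpha replicate 3 had few reads (35817 over highly edited sites) and the highest median: without it, 38 of 953 sites were called and the median difference was 4.87 points. By kind of sequence, the median was 11.8 points in 3' UTRs, 5.53 in introns and 3.01 in pseudogene exons, and 9.24, 3.14 and 0.09 without that library. The GFP libraries of day 4 are also those of the ADAR comparison, and the IFN-alpha cells had been given the CTRL guides, so the guides differ between these groups too.

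SPN held the largest called rise with at least 20 reads in every library. Its site at chr16:29680945 had 43.9, 53.7 and 43.7% editing in GFP libraries and 81.8, 82.0 and 86.8% with IFN-alpha, a difference of 36.4 points (adjusted p = 4.02e-12, edgeR). The most-read SPN site, upstream of it in the same 3' UTR, had 56.0, 61.0 and 59.6% and then 69.9, 74.0 and 81.8%, a difference of 14.9 points (adjusted p = 3.47e-12, edgeR). CCNYL1, a cyclin Y-like gene, had 47.7, 55.6 and 39.6% and then 80.4, 79.5 and 87.9% (adjusted p = 6.19e-08, edgeR). The one lower call was an intergenic site (chr14:50005479), at 92.0, 73.2 and 93.9% in GFP libraries and 70.8, 56.2 and 37.3% with IFN-alpha (adjusted p = 0.000846, edgeR). The MAVS site did not rise detectably (pooled 72.5 and 72.4%).

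Study 2, with another clone, other guides, longer reads and a site list made separately, listed 1472 of the 1931 sites. Over the 518 with at least 10 reads in all 18 libraries, the median editing of a library was 52.8 to 58.3% in CTRL and hnRNPC cells and 29.9 to 33.8% in ADAR and ADAR+hnRNPC cells, without overlap. In total RNA, 179 of 907 sites were called lower in ADAR cells (19.7%, background 2.56%, sites at 20 to under 50% 21.5%), with a median difference of -21.2 points. In cytosolic RNA, 283 of 852 were called lower (33.2%, background 4.63%, sites at 20 to under 50% 35.9%), with a median of -23.0 points. limma, with 2 libraries per group, called 0 in either (581 and 600 at an unadjusted p of at most 0.05). Leaving out CTRL replicate 1 or ADAR replicate 2 gave 80 or 118 calls in total RNA, and leaving out CTRL replicate 1 or 2 gave 162 or 176 in cytosolic RNA. Across the 627 sites tested on day 4 of study 1 and in total RNA of study 2, which share no library, the differences had a Pearson r of 0.599 and a Spearman rho of 0.601; sites are not independent replicates, and no test was made.

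The same sites could be followed by name. SPN had 58.1 and 54.7% and then 16 and 17.0% in cytosolic RNA (adjusted p = 4.00e-22, edgeR), and 58.2 and 53.7% and then 30.4 and 25.8% in total RNA (adjusted p = 8.63e-43, edgeR). Among called sites with at least 20 reads in every library, the largest falls were at OSTM1, which encodes a partner of a lysosomal chloride transporter, with 64.0 and 86.8% and then 13.8 and 22.5% in cytosolic RNA (adjusted p = 1.10e-08, edgeR), and at RBBP4, which encodes a histone-binding protein, with 71.1 and 71.2% and then 23.3 and 14.3% in total RNA (adjusted p = 0.000132, edgeR). DHDDS had 58.6 to 83.3% in the 10 CTRL and hnRNPC libraries and 9.09 to 40.5% in the 8 ADAR and ADAR+hnRNPC libraries, without overlap.

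Few of these sites differed detectably between compartments. In CTRL cells the median over the common sites was 54.4% ± 2.3 in total RNA and 57.4% ± 0.66 in cytosolic RNA (SD, n = 2), and edgeR called 0 of 882 sites (background 0.00763%, 17 at an unadjusted p of at most 0.05, 0 by limma). In hnRNPC cells, nuclear RNA had 54.4% ± 0.18 and cytosolic RNA 57.8% ± 0.81, and 1 of 868 sites was called (0.115%, background 0.0189%, 12 at an unadjusted p of at most 0.05, 0 by limma). That site, named after its value was seen, lies in an intron of ENSG00000253821 (chr8:58406888) and had 84.3 and 82.2% editing in cytosolic RNA and 50 and 51.9% in nuclear RNA (adjusted p = 5.17e-06, edgeR). With 2 libraries per group limma called 0 for ADAR in study 2 too, so its counts decide nothing here. The median difference varied with location, which was not tested. Nuclear minus cytosolic RNA in hnRNPC cells was -6.32 points at 300 intronic sites (interquartile range -12.5 to -1.39) and -1.37 at 382 3' UTR sites. Cytosolic minus total RNA in CTRL cells was 4.35 points at 320 intronic and 1.65 at 390 3' UTR sites. Total RNA includes the cytosolic part. The reads were distributed differently: 3' UTR sites held 60.9 and 60.5% of the reads over highly edited sites in cytosolic and 50.4 and 53.7% in nuclear RNA of hnRNPC cells.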

How the data were processed

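Edited (G) and total read counts per adenosine and read counts per gene, as deposited by the authors, were read for 48 libraries of study 1 and 18 of study 2 (stranded, ribosomal RNA depleted). The authors aligned reads to GRCh37 with STAR 2.5.4a, removed PCR duplicates, called sites with SAILOR, merged them over libraries, removed variants seen in the genome of the STING-deficient clone and counted genes with featureCounts; the clone of study 2 was not covered by that variant filter. The 0.201 to 0.673% of values empty in a library of study 1 (0.242 to 0.57% in study 2) were treated as missing.

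The highly edited sites, the gene lists and the tests were chosen with earlier results of these data known. Samples were grouped by their labels. No 2 libraries of a group had counts that agreed within sampling noise (chi-square per degree of freedom of at least 15.5 in study 1 and 16.9 in study 2). Per the study's figure legends, the libraries of a group come from independent experiments, 3 in study 1 and 2 in study 2; the labels do not say which libraries share an experiment.

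In R 4.3.3, edgeR 4.0.16 (quasi-likelihood) tested the edited share of every site with at least 10 reads in every library compared, with edited and unedited counts as 2 columns per library, 1 term per library and 1 per group. Sites were called at an adjusted p (Benjamini-Hochberg) of at most 0.05 and a difference in pooled editing of at least 10 percentage points; the interaction used the p alone. The design was tested on simulated data with 200 changed sites. Alternatives were limma 3.58.1 on log2 odds (0.5 added), at least 20 or 1 reads, no minimum difference, CTRL in place of GFP, all libraries in 1 fit, the replicate number as a block, each library left out and, chosen after seeing the data, only sites with at least 5% editing. Same-numbered libraries of different groups had correlations of deviations of -0.0108 to 0.0319 over 28 pairs, so the numbers were not taken to pair them.

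Sites were placed by GENCODE v44lift37 on their own strand. An inverted match was a local alignment of the 201 bases around a site with the reverse complement of 3000 bases on each side, of at least 100 bases and 70% identity (Biopython 1.88, pysam 0.24.0). Sites named are, with at most 1 per ECR or gene and none on chromosome 8, the 6 most-read, up to 4 called with the largest difference per comparison (at least 20 reads in every library, groups apart), the 4 most-read coding, the 4 with the least ADAR to GFP difference, the most-read of listed genes and those next to the limits; exceptions are stated, and 1 of the most-read sites is not reported here. The 4 sites with the least difference were taken from those with at least 20 reads in every ADAR and GFP library of study 1. The median of 10 to 26 reads per site and library sets the precision of most single values. Python 3.11.15, pandas 2.3.3 and matplotlib 3.10.9 were used.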

Additional observations from a re-analysis of the deposited data

How the results depend on the processing

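No result changed direction: 104 recounts of the called highly edited sites stayed within 1.5 times the reported count and 42 did not, and all 177 differences of named sites were the same when libraries were averaged instead of pooled. Of the group medians, 31 recomputed ones moved by less than the SD between libraries and 19 by more. When tests were limited to sites with at least 5% editing, an alternative chosen after seeing the data, fewer sites shared the correction and calls rose to 407, 461 and 472 for ADAR on days 3, 4 and 5, to 258 for ADAR+hnRNPC, to 137 for IFN-alpha, to 393 and 481 for ADAR in total and cytosolic RNA of study 2, and to 2 for nuclear against cytosolic RNA. limma called 189 for ADAR on day 5, 4 for ADAR+hnRNPC and 0 for hnRNPC on day 5, for ADAR in both fractions of study 2 and for nuclear against cytosolic RNA; the cause was not tested. For hnRNPC on day 5, 1 site was called with at least 20 reads or with at least 1 read, and 0 against CTRL. With at least 1 read, IFN-alpha gave 44 calls. With the replicate block, ADAR on day 5 gave 170 calls, ADAR+hnRNPC 61 and hnRNPC on day 5 gave 0; the block moved no other count of calls by over 1.5 times. Leaving out 1 library gave 151 to 220 calls for ADAR on day 3, 158 to 220 on day 4, 141 to 197 on day 5, 0 to 2 for hnRNPC on day 5, 38 to 80 for ADAR+hnRNPC, 38 to 59 for IFN-alpha, 80 to 131 for ADAR in total RNA and 162 to 224 in cytosolic RNA; a lone library of study 2 was assumed to vary like the other group.

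Depth limits the calls: 701 of the 1931 sites never had enough reads for the ADAR tests of study 1, and a count of 0 calls says that no difference was detectable at this depth.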
